A study of Mus musculus with 16 samples.

Results

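The transcripts of 10 immediate early response genes were followed through 15 mouse mammary tumors given a TGF beta inhibitor, radiation, both, or both with an antibody to PD-L1. The genes were Fos, Fosb, Jun, Junb, Egr1, Atf3, Ier2, Dusp1, Nr4a1 and Zfp36, chosen by symbol from the 27179 genes of the count table, and all 10 were found and passed the filter on low counts. All tumors were transplants of 1 Trp53 null mammary tumor family, family F, grown in female BALB/cJ mice aged 8 to 10 weeks at transplantation, which entered treatment when tumors measured 65 to 100 mm3. Tumors were taken 7 days after treatment, with 3 tumors in each of 5 groups. TGFbi+RT+anti-PD-L1, called the triple group, had IPW-5371, a small molecule TGF beta inhibitor, at 20 mg/kg daily, a single focal dose of 10 Gy and anti-PD-L1 at 10 mg/kg weekly. The TGFbi+RT group had the same inhibitor and radiation, the RT group had radiation, the TGFbi group had the inhibitor, and the Sham group had control immunoglobulin G at 25 mg/kg. All groups share 1 tumor family, so the values describe that family, with its Trp53 null background present in Sham as well.

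Immediate early genes are switched on by growth factors, stress and injury without new protein synthesis, mostly through MAP kinases acting on serum response factor and CREB at promoters that are already accessible. Their transcripts are short-lived. Fos and Jun family proteins pair to form the transcription factor AP-1, Egr1, Atf3 and Nr4a1 encode further DNA-binding factors, and Dusp1 and Zfp36 encode feedback proteins that end the response by removing phosphate from MAP kinases and by destabilising AU-rich messages.

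The promoters of 4 members are given because these genes stand at the ends of the patterns described further on: Fos, Dusp1 and Zfp36 varied together between tumors, and Nr4a1 did not vary with them. Each window holds 250 bases before and 50 bases after the annotated start, 5′ to 3′ on the gene's strand, from RefSeq on GRCm38.p6. It lies at chr12:85473640-85473939 (plus strand) for Fos, chr17:26508423-26508722 (minus) for Dusp1, chr15:101266596-101266895 (plus) for Nr4a1 and chr7:28379179-28379478 (minus) for Zfp36. Capitals mark the core of the cyclic AMP response element, TGACG on either strand (CGTCA on the other), the serum response factor box known as CArG, and the EGR motif GCGNGGGCG on either strand.
Fos: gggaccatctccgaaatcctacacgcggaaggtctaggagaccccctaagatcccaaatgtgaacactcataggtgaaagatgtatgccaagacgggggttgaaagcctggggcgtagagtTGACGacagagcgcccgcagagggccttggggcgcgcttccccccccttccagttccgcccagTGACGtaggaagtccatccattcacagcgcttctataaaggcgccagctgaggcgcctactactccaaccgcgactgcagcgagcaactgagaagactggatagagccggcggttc
Dusp1: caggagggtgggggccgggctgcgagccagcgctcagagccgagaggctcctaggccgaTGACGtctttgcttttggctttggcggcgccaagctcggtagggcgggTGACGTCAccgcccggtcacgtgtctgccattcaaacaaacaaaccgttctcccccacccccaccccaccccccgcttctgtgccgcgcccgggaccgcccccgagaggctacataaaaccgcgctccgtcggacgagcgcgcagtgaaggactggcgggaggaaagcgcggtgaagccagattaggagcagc
Nr4a1: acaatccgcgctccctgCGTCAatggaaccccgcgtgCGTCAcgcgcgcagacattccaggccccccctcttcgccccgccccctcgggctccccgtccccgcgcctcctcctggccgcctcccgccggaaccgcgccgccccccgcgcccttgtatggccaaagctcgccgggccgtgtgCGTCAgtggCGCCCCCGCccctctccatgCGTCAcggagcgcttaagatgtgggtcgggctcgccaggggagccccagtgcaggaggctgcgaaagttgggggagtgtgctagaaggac
Zfp36: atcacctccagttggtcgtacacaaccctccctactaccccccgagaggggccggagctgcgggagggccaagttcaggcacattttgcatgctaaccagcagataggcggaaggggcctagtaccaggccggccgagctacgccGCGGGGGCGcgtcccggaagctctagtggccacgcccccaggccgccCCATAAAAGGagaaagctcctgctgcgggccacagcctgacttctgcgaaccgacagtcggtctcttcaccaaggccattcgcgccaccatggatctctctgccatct

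Windows were held for 8 of the 10 members, all but Egr1 and Ier2. The core TGACG was found in 6 of these 8 (Fos, Fosb, Junb, Atf3, Dusp1 and Nr4a1), against 20.8% of 32851 RefSeq promoter windows of the same length. Nr4a1 held 4 copies, at 233, 213, 69 and 40 bases before the start, Dusp1 held 3 and Fos held 2, at 129 and 66 bases before the start. A pair of the Dusp1 copies overlap in the full palindrome TGACGTCA, 143 bases before the start, which 1.79% of all windows hold. The CArG box was found in Zfp36 only among the 8, 58 bases before its start, against 1.63% of windows. The EGR motif was found in Fosb, Nr4a1 and Zfp36, against 5.55% of windows. The AP-1 motif TGANTCA was in 0 of the 8 windows, against 7.81% of all windows, and TATAAA was in Fos and Junb, against 13.6%. A match is a description of the letters in the window and not of binding, and no match says only that the letters are not in this window.

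Libraries held 11002869 to 17184023 counts per tumor, with a median of 13302488, and no member fell below 9 counts in a tumor. Mammary epithelial markers were present in every tumor: Epcam stood at 110 to 203 CPM, and the 10 markers of the list were above 0 in all 15 tumors. On the first principal component, which held 46.8% of the variance, scores of -114 for triple replicate 2 and -102 for TGFbi+RT replicate 3 lay far from those of the other 13 tumors. The library names carry a code, A2304 for all 3 RT tumors and for triple replicates 2 and 3, and A2301 for the other 10 tumors, so RT and its code cannot be told apart. Of these 10, TGFbi+RT replicate 3 and TGFbi replicate 3 are marked as resubmitted. TGFbi replicate 3 also held 6.45% mitochondrial and 6.30% Rn7sk counts, against medians of 2.89% and 1.87% over the 15 tumors. These are bulk samples, in which more cells of a type and more RNA per cell cannot be told apart.

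The highest group mean was that of the triple group for 8 of the 10 members (Fos, Fosb, Jun, Junb, Egr1, Atf3, Dusp1 and Zfp36), and Ier2 and Nr4a1 were nearly level across groups. The share of all genes with their highest mean in the triple group was not computed, so this count cannot be called particular to the members. TGFbi+RT stood second for 7 of these 8, the exception being Fosb, for which RT stood second. For every member, each pair of groups that were neighbours in the order of means overlapped. No member passed an edgeR adjusted p of 0.05 in any of 10 contrasts or in the F test over the 5 groups. Levels are CPM, reads of a gene for each 1000000 reads of the TMM-adjusted library size.

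**Figure D1:**
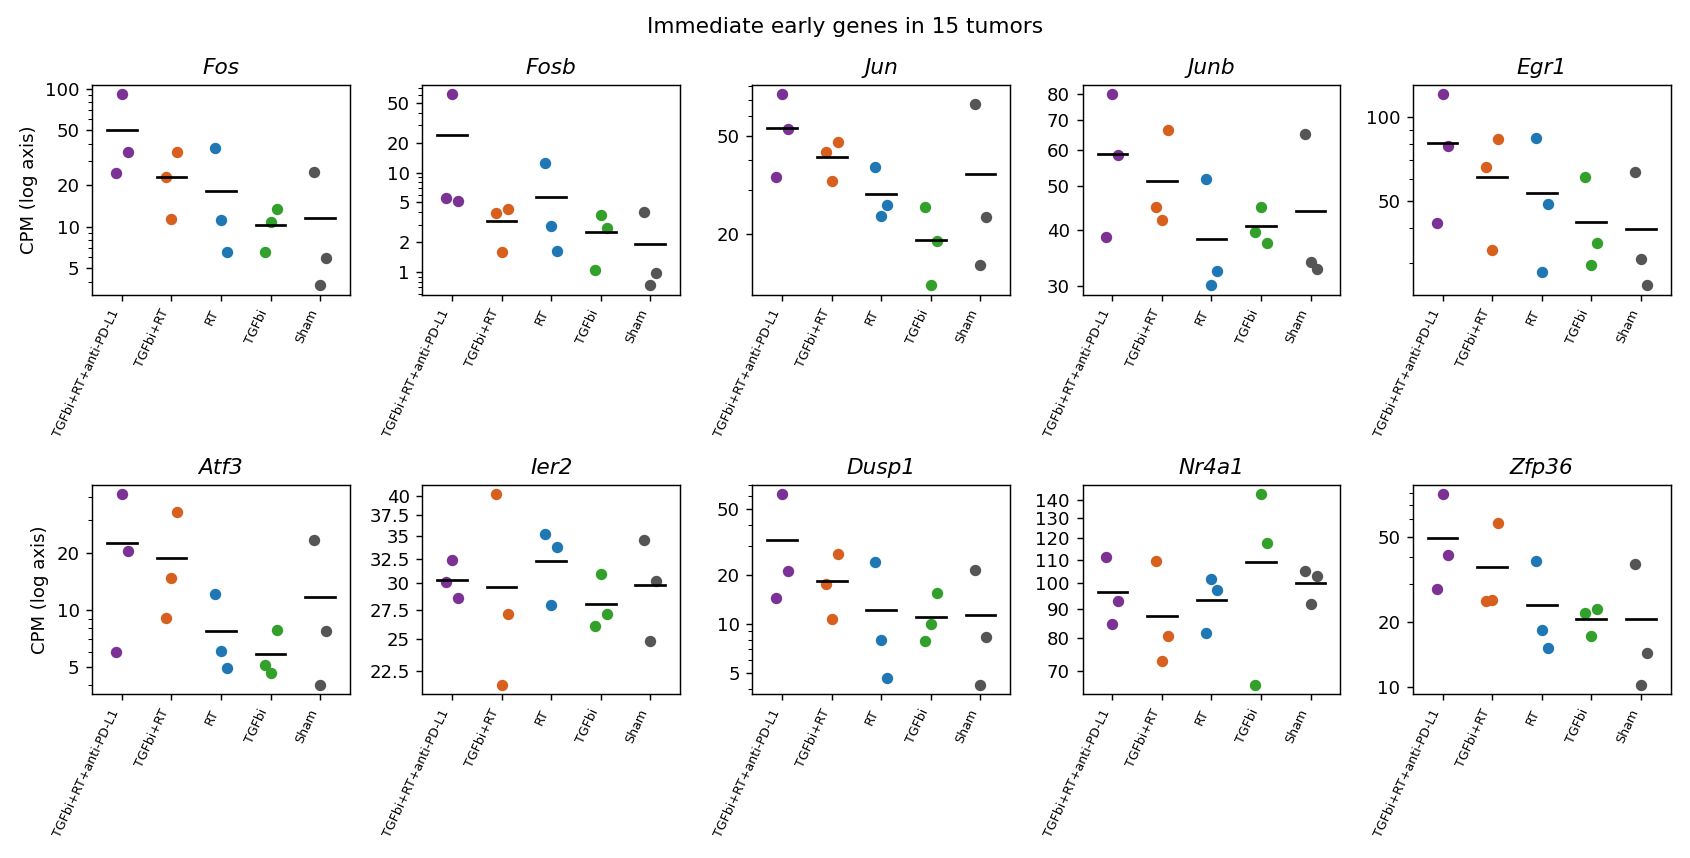
Level of each of the 10 immediate early genes in CPM (log axis) in every tumor by group. Points are single tumors, 3 in each group, and the line is the group mean. Triple replicate 2 was the highest of the 15 tumors for 8 genes, reaching 90.8 CPM of Fos and 60.9 CPM of Fosb, while Ier2 stayed between 21.5 and 40.2 CPM. The share of all genes that were highest in that tumor was not computed.

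Fos (Entrez 14281, GRCm38 chromosome 12, 85473901 to 85477269, plus strand, 4 exons) encodes the AP-1 subunit that gives the family its name. It stood at 24.6, 90.8 and 34.6 CPM in the triple group and at 22.8, 11.4 and 34.9 CPM in TGFbi+RT. It stood at 37.2, 11.1 and 6.53 CPM in RT, at 6.51, 10.8 and 13.3 CPM in TGFbi and at 24.8, 3.77 and 5.90 CPM in Sham. Sham replicate 1 was as high as the lowest triple tumor, and the other 2 Sham tumors were the lowest of the 15. Group means were 50.02 ± 35.7 CPM in the triple group, 23.0 ± 11.7 in TGFbi+RT, 18.3 ± 16.5 in RT, 10.2 ± 3.45 in TGFbi and 11.47 ± 11.6 in Sham (SD, n = 3 each).

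Fosb (Entrez 14282, chromosome 7, 19302696 to 19310045, minus strand, 4 exons) encodes another Fos family subunit of AP-1, and was the scarcest member per base of exon. It stood at 5.60, 60.9 and 5.15 CPM in the triple group, at 3.94, 1.57 and 4.26 CPM in TGFbi+RT and at 12.5, 2.92 and 1.62 CPM in RT. It stood at 1.06, 3.75 and 2.75 CPM in TGFbi and at 4.00, 0.737 and 0.973 CPM in Sham. All 3 triple tumors were above all tumors of TGFbi+RT, TGFbi and Sham, but RT replicate 1 was above 2 of them. The share of all genes separated in this way from TGFbi was not computed. The triple mean of 23.9 ± 32.1 CPM (SD, n = 3) rested on replicate 2.

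Jun (Entrez 16476, chromosome 4, 95049036 to 95052222, minus strand, 1 exon) encodes the partner with which Fos proteins bind DNA. It stood at 34.1, 73.7 and 53.2 CPM in the triple group and at 43.2, 32.6 and 47.3 CPM in TGFbi+RT. It stood at 37.5, 23.5 and 26.1 CPM in RT, at 25.7, 12.4 and 18.7 CPM in TGFbi and at 67.2, 14.9 and 23.3 CPM in Sham. The TGFbi tumors lay below all tumors of the triple and TGFbi+RT groups, and Sham spanned nearly the whole range of the 15 tumors. For triple against TGFbi the share of all genes with such a separation was not computed. Junb (Entrez 16477, chromosome 8, 84976909 to 84978748, minus strand, 1 exon), whose protein restrains Jun activity in many settings, varied less. It stood at 38.6, 79.7 and 58.6 CPM in the triple group, 44.9, 42.0 and 66.6 CPM in TGFbi+RT, 51.8, 30.2 and 32.5 CPM in RT, 39.7, 44.97 and 37.5 CPM in TGFbi and 65.1, 33.9 and 32.8 CPM in Sham. All groups overlapped for Junb.

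Egr1 (Entrez 13653, chromosome 18, 34861207 to 34864956, plus strand, 2 exons) encodes a zinc finger factor that is a textbook target of serum response factor. It stood at 41.9, 120.3 and 78.9 CPM in the triple group and at 66.0, 33.4 and 83.3 CPM in TGFbi+RT. It stood at 84.1, 27.8 and 48.6 CPM in RT, at 61.0, 29.4 and 35.3 CPM in TGFbi and at 63.4, 31.0 and 25.0 CPM in Sham. All 5 groups overlapped. Atf3 (Entrez 11910, chromosome 1, 191170296 to 191183333, minus strand, 4 exons) encodes a stress-induced factor of the CREB and AP-1 superfamily. It stood at 6.00, 41.3 and 20.6 CPM in the triple group, 9.08, 14.8 and 33.1 CPM in TGFbi+RT, 12.2, 6.11 and 4.92 CPM in RT, 5.10, 4.62 and 7.84 CPM in TGFbi and 23.5, 4.01 and 7.72 CPM in Sham. All 3 TGFbi+RT tumors were above all 3 TGFbi tumors, and Sham replicate 1 was the third highest of the 15.

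Nr4a1 (Entrez 15370, chromosome 15, 101266846 to 101274795, plus strand, 7 exons) encodes an orphan nuclear receptor, Nur77, that is also induced by T cell receptor signaling. It had the highest level per kilobase of exon of the 10 members. It stood at 111, 84.6 and 93.2 CPM in the triple group and at 109, 73.2 and 80.7 CPM in TGFbi+RT. It stood at 81.8, 102 and 97.3 CPM in RT, at 66.3, 143 and 117 CPM in TGFbi and at 105, 91.9 and 103 CPM in Sham. Both the lowest and the highest of the 15 tumors were TGFbi tumors. Ier2 (Entrez 15936, chromosome 8, 84661331 to 84662852, minus strand, 1 exon), named as an immediate early response gene, was flatter still. It stood at 30.1, 32.4 and 28.5 CPM in the triple group, 40.2, 21.5 and 27.1 CPM in TGFbi+RT, 35.2, 27.96 and 33.7 CPM in RT, 26.0, 30.9 and 27.1 CPM in TGFbi and 34.5, 24.8 and 30.2 CPM in Sham. The highest and the lowest tumor were both of TGFbi+RT.

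Dusp1 (Entrez 19252, chromosome 17, 26505591 to 26508472, minus strand, 4 exons) encodes a phosphatase that switches off MAP kinases. It stood at 14.4, 61.6 and 21.0 CPM in the triple group and at 17.6, 10.8 and 26.5 CPM in TGFbi+RT. It stood at 23.9, 7.94 and 4.71 CPM in RT, at 7.83, 9.97 and 15.4 CPM in TGFbi and at 21.4, 4.26 and 8.36 CPM in Sham. The 5 highest tumors were the same as for Fos. Its exons overlap those of Entrez gene 100862171 on the other strand, which had 0 counts in all tumors, and the strand setting of the counting is not given in the sources used here. Zfp36 (Entrez 22695, chromosome 7, 28376784 to 28379228, minus strand, 2 exons) encodes tristetraprolin, which promotes decay of AU-rich messages such as that of Tnf. It stood at 28.6, 78.6 and 40.9 CPM in the triple group, 25.2, 25.3 and 57.8 CPM in TGFbi+RT, 38.5, 18.5 and 15.1 CPM in RT, 22.0, 17.2 and 23.0 CPM in TGFbi and 37.4, 10.2 and 14.3 CPM in Sham. All 3 TGFbi+RT tumors were above all 3 TGFbi tumors.

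**Figure D2:**
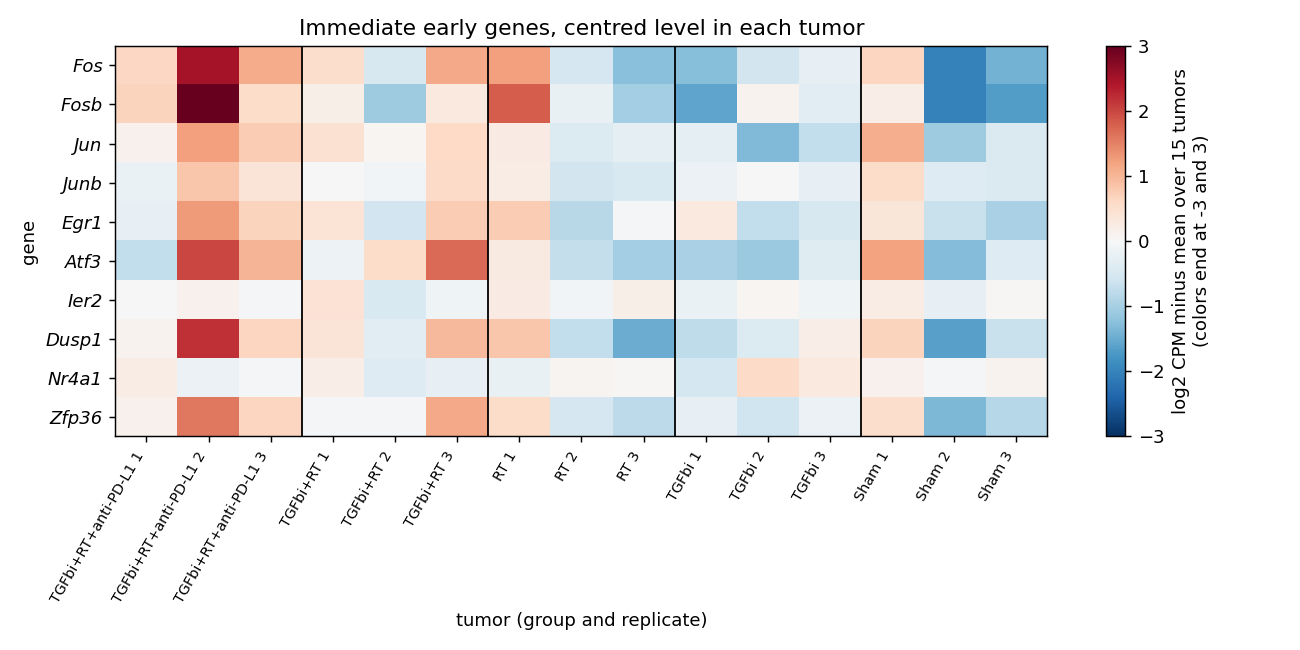
Level of the 10 genes in each of 15 tumors as log2 CPM minus the mean of the gene over all tumors, with vertical lines between groups and colors ending at -3 and 3. Triple replicates 2 and 3, TGFbi+RT replicate 3, RT replicate 1 and Sham replicate 1 are high for most genes, while Ier2 and Nr4a1 are pale throughout.

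Per kilobase of exon, averaged over the 15 tumors, the members ranged from 39.3 CPM per kb for Nr4a1 to 1.97 CPM per kb for Fosb. Between them stood Junb at 25.3, Ier2 at 19.7, Egr1 at 18.002, Zfp36 at 17.1, Jun at 11.2, Fos at 10.8, Dusp1 at 8.78 and Atf3 at 6.77 CPM per kb. The 2 members with little variation, Nr4a1 and Ier2, were thus among the most abundant, although Junb, which stood between them, varied more than either.

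The members differed widely in how much they varied between tumors that had the same treatment. The pooled SD within groups, on the log2 CPM scale, was 1.34 for Fosb, 1.04 for Fos, 1.00 for Atf3 and 0.95 for Dusp1. It was 0.71 for Zfp36, 0.70 for Egr1, 0.63 for Jun, 0.43 for Junb, 0.32 for Nr4a1 and 0.25 for Ier2. The median over the 9965 genes in the same range of levels (average log2 CPM of 1.85 to 6.58) was 0.29. Of those genes, 98.1% had a smaller SD than Fosb and 94.5% a smaller SD than Fos, against 55.9% for Nr4a1 and 39.3% for Ier2. Between the highest and the lowest of the 15 tumors the ratio was 82.7 for Fosb, 24.1 for Fos, 14.5 for Dusp1 and 10.3 for Atf3, and 1.87 for Ier2.

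The triple group against Sham asked what all 3 agents did together. The log2 fold change was above 0 for 9 of the 10 members, with a median of 0.98, against 49.5% of all 16017 genes tested and a median of -0.00 over them. Fosb, the only member whose groups did not overlap, had a log2 fold change of 3.63 ± 1.11 (SE, edgeR unadjusted p = 0.00625, adjusted p = 0.209), a pattern of non-overlap in the higher direction found in 9.41% of all genes. Fos had 2.12 ± 0.80 (unadjusted p = 0.0204, adjusted p = 0.259) and Zfp36 1.25 ± 0.54 (unadjusted p = 0.0372, adjusted p = 0.309), and the other 7 members lay between -0.05 and 1.51. With edgeR, 0 members passed the adjusted threshold, as did 0% of all genes, and 3 of 10 had an unadjusted p under 0.05, against 14.9% of all genes. DESeq2 also called 0 of the 9 members that it gave an adjusted p. For Fosb it gave a log2 fold change of 3.64 but no p, adjusted or unadjusted. Without triple replicate 2 the values were 1.46 for Fosb, 1.34 for Fos and 0.72 for Zfp36, and without Sham replicate 1 they were 4.78, 3.36 and 2.00. With the library code as a term they were 1.54, 1.09 and 0.47. Only the triple group holds both codes, so that term rested on its replicate 1 against its replicates 2 and 3. Within A2301 only 1 triple tumor remained. It stood 1.85 above the 3 Sham tumors for Fosb and 1.56 above them for Fos on the log2 scale.

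TGFbi+RT against Sham asked about the dual treatment. The log2 fold change was above 0 for 8 of 10 members (49% of all genes), with a median of 0.65, and ranged from -0.19 for Nr4a1 to 1.00 for Fos. By edgeR, 0 members passed at an adjusted or an unadjusted p of 0.05, where 0% and 15% of all genes passed. RT against Sham gave a median of 0.11 with 6 of 10 members above 0 (52.1% of all genes). TGFbi against Sham gave a median of -0.06 with 4 of 10 above 0 (48.6% of all genes). In RT against Sham 0 members passed at either p with edgeR, where 0% of all genes passed the adjusted and 4.2% the unadjusted p. In TGFbi against Sham 0 members passed at either p, where 0.00624% and 8.48% of all genes did. In TGFbi the 2 lowest values were those of Atf3 (-1.01) and Jun (-0.90). In Sham, Atf3 stood at 23.5 CPM and Jun at 67.2 CPM in replicate 1, against at most 7.72 and 23.3 CPM in the other 2 tumors. DESeq2 called 0 members in these 3 comparisons, with no p for Fosb. The 4 comparisons with Sham share the same 3 Sham tumors, of which replicate 1 was the highest of the 3 for all 10 members.

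**Figure D3:**
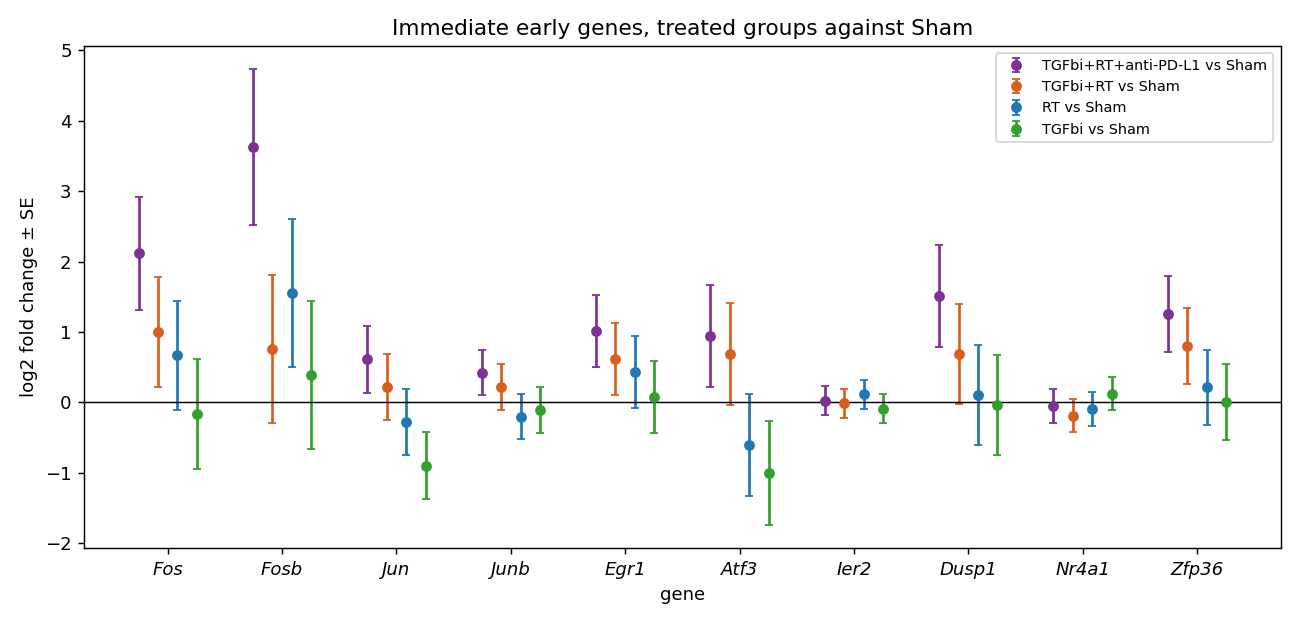
Log2 fold change of each gene in the 4 treated groups against Sham, from the edgeR fit, with bars of 1 standard error. Fosb at 3.63 and Fos at 2.12 in the triple group lie highest, and Ier2 and Nr4a1 lie near 0 in every comparison.

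Radiation added to the inhibitor (TGFbi+RT against TGFbi) gave log2 fold changes above 0 for 9 of the 10 members (53.7% of all genes), with a median of 0.63. Jun had 1.12 ± 0.48 (SE, edgeR unadjusted p = 0.0369, adjusted p = 0.789) and Atf3 had 1.69 ± 0.75 (unadjusted p = 0.0421, adjusted p = 0.789). Zfp36 had 0.80 ± 0.54 (unadjusted p = 0.162, adjusted p = 0.815). For these 3 the groups did not overlap, with TGFbi+RT higher, as was so for 6.38% of all genes. No member passed the edgeR adjusted threshold (0% of all genes), and 2 of 10 had an unadjusted p under 0.05, against 6.06% of all genes. All 6 tumors carry the code A2301. Without TGFbi+RT replicate 3 the values were 1.00 for Atf3 and 0.26 for Zfp36, and Jun ranged from 0.89 to 1.40 over tumors left out. Without the 2 resubmitted libraries, 1 in each group, Jun was 1.00, Atf3 1.29 and Zfp36 0.36, with edgeR unadjusted p of 0.143, 0.177 and 0.58.

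Inhibitor added to radiation (TGFbi+RT against RT) gave a median log2 fold change of 0.38, with 7 of 10 members above 0 (50.2% of all genes). The edgeR test called 0 members at the adjusted p (0% of all genes) and 0 at an unadjusted p under 0.05, where 9.62% of all genes were called. Atf3 had the largest value, 1.29, and Fosb the lowest, -0.80. Every TGFbi+RT library carries the code A2301 and every RT library A2304, so treatment and code cannot be told apart here. The antibody added to the dual treatment (triple against TGFbi+RT) gave values above 0 for all 10 members, with a median of 0.39, where 54.7% of all genes were above 0. Fosb had 2.87 ± 1.07 (SE, edgeR unadjusted p = 0.0191, adjusted p = 1), with no overlap of the groups, as was so in the higher direction for 2.1% of all genes. It was the only member with an unadjusted p under 0.05, against 1.99% of all genes, and 0 members passed the adjusted threshold, as did 0% of all genes. Without triple replicate 2, Fosb was at 0.72. With the code as a term it was 0.78, but that term rested on the triple group alone. Within A2301 the 1 triple tumor stood below the mean of the 3 TGFbi+RT tumors for 6 of the 10 members, from -1.43 for Atf3 to -0.22 for Zfp36 on the log2 CPM scale.

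Over all groups, the 9 irradiated tumors were set against the 6 unirradiated ones as a contrast of group means. Fos had a log2 fold change of 1.35 ± 0.52 (SE, edgeR unadjusted p = 0.0233, adjusted p = 0.347) and Fosb 1.79 ± 0.70 (unadjusted p = 0.0251, adjusted p = 0.352). The median over the members was 0.70, with 9 of 10 above 0 (52% of all genes) and Nr4a1 below. At the adjusted p edgeR called 0 members (0% of all genes), and at an unadjusted p under 0.05 it called 2 of 10, against 12.4% of all genes. Within A2301, with 4 irradiated and 6 unirradiated tumors, Fos stood 1.26 higher and Fosb 0.90 higher on the log2 CPM scale. With the code as a term in the fit the values were 0.55 and 0.23, but that term rested on the triple group alone. Without the 2 resubmitted libraries, 1 irradiated and 1 not, they were 1.32 and 1.74 (edgeR unadjusted p = 0.0508 and 0.0644). Without Sham replicate 1 they were 1.97 and 2.36, without triple replicate 2 Fosb was 1.05, and without RT replicate 1 Fos was 0.98.

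The 9 tumors with inhibitor set against the 6 without gave a median of 0.43, with 9 of 10 members above 0 (48.7% of all genes). Again edgeR called 0 members at the adjusted p (0% of all genes) and 0 at the unadjusted, where 17% of all genes had an unadjusted p under 0.05. Within A2304 the 2 inhibitor tumors, triple replicates 2 and 3, stood 1.99 above the 3 RT tumors for Fos on the log2 CPM scale. They had the antibody as well. Within A2301 the 7 inhibitor tumors, 4 of them irradiated, stood 0.90 above the 3 unirradiated Sham tumors. For Jun these differences were 1.13 and -0.03. Neither difference isolates the inhibitor. The interaction, which asks whether inhibitor and radiation together differ from the sum of each alone, had a median of 0.52 over the members, with 7 of 10 above 0 (53.3% of all genes). Atf3 had 2.30 ± 1.04 (SE, edgeR unadjusted p = 0.0467, adjusted p = 1), the only member with an unadjusted p under 0.05, against 3.8% of all genes, and 0 members passed the adjusted threshold (0% of all genes). It was 1.297 without Sham replicate 1. With the code as a term it was 4.66 (edgeR unadjusted p = 0.0069, adjusted p = 0.606), but that term rested on the triple group alone. There Atf3 stood at 6.00 CPM in replicate 1, against 41.3 and 20.6 CPM in replicates 2 and 3. In the F test over the 5 groups Fosb alone had an unadjusted p under 0.05 (edgeR unadjusted p = 0.0129, adjusted p = 0.339), against 10.8% of all genes, and 0% of all genes passed the adjusted threshold.

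Between tumors of the same treatment, 8 of the 10 members moved together. On log2 CPM with group means removed, Fos and Dusp1 had a Pearson r of 0.98 and a Spearman rho of 0.97 over 15 tumors (both permutation p = 0.00012, adjusted p = 0.0027 over 45 pairs, 2-sided). A permutation p of this size is near the lowest that permuting 3 tumors within each of 5 groups can give. The r of Fos and Dusp1 was 0.97 without the 2 tumors farthest from the median of Fos. In every pair the 2 farthest tumors were picked only by the member that comes first in the list at the opening. Atf3 and Zfp36 had an r of 0.94 and a rho of 0.925 (both permutation p = 0.00012, adjusted p = 0.0027), and 0.88 without the 2 farthest tumors. Fos and Fosb had an r of 0.91 and a rho of 0.82 (permutation p = 0.00079 and 0.00138, adjusted p = 0.00653 and 0.0124), and 0.89 without the 2 farthest tumors. Over the 28 pairs of the 8 members other than Ier2 and Nr4a1, a division made after the values were seen, r was 0.57 to 0.98 with a median of 0.82, and 22 pairs passed an adjusted p of 0.05. Without the 2 farthest tumors of each pair the median was 0.73, and of all 45 pairs 3 passed against 23 with all tumors, where fewer tumors also make p coarser. The share of pairs that pass among other genes was not computed.

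Nr4a1 had an r of -0.41 to 0.48 with the other 9 members and passed with 0 of them. Ier2 had an r of 0.13 to 0.52 and passed with Fosb only (r = 0.52, rho = 0.57, permutation p = 0.0203 and 0.0274, adjusted p = 0.0397 and 0.0588, and 0.58 without the 2 farthest tumors). As a description with the group means kept, r with the mean of the other 9 members was 0.97 for Fos, 0.96 for Dusp1 and Zfp36, 0.90 for Junb, 0.85 for Fosb, 0.83 for Atf3, 0.82 for Jun and Egr1, 0.37 for Ier2 and -0.19 for Nr4a1.

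**Figure D4:**
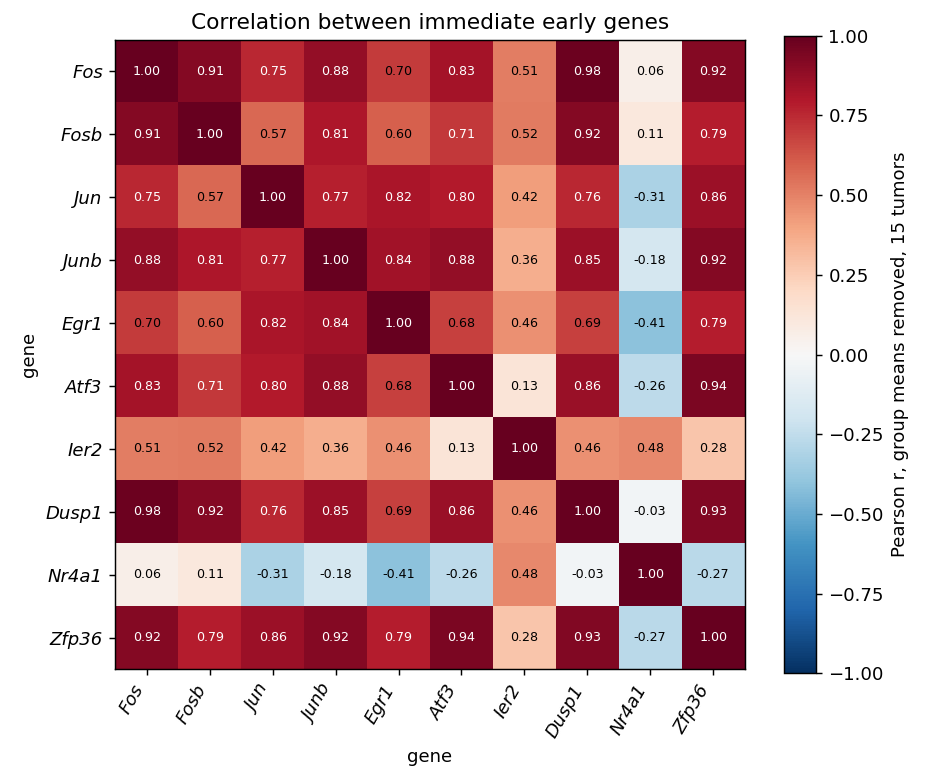
Pearson r between each pair of the 10 genes over 15 tumors, on log2 CPM with group means removed. The 8 genes other than Ier2 and Nr4a1 have r of 0.57 to 0.98 with each other, and the rows of Nr4a1 and Ier2 stand out as pale.

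Within each group, the tumor in which the members were highest also had the highest fibroblast and leukocyte marker sums. This did not hold for each single marker. In each of the 5 groups, the tumor with the highest mean of the 10 members had both the highest summed level of 8 fibroblast and pericyte markers and the highest summed level of 10 leukocyte markers. These tumors were triple replicate 2, TGFbi+RT replicate 3, RT replicate 1, TGFbi replicate 3 and Sham replicate 1. Across groups the order differed, as Sham replicate 1 had a lower leukocyte sum than all 3 tumors of TGFbi+RT. The fibroblast and pericyte sums were 1687, 8268 and 7374 CPM in the triple group, 2771, 1763 and 4150 in TGFbi+RT, 8365, 1302 and 1034 in RT, 2220, 1915 and 3657 in TGFbi and 8626, 860 and 816 in Sham. All 8 of these markers were above 0 in every tumor, and Acta2 among them is also made by myoepithelial cells. Acta2 was lowest of its group in triple replicate 2 (257 CPM) and TGFbi+RT replicate 3 (156 CPM). It was highest of its group in RT replicate 1, TGFbi replicate 3 and Sham replicate 1. Leukocyte sums were 330, 2703 and 395 CPM in the triple group, 334, 241 and 1424 in TGFbi+RT, 451, 144 and 74.1 in RT, 175, 116 and 274 in TGFbi and 176, 41.5 and 65.9 in Sham. Of the 10 leukocyte markers 5 were at 0 in at least 1 tumor, with at most 2 at 0 in any tumor. Cd74 alone made up 1441 CPM of the leukocyte sum in triple replicate 2.

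Within treatments, Fos followed the fibroblast and pericyte sum with an r of 0.91 and a rho of 0.85 (permutation p = 0.00056 and 0.0027, adjusted p = 0.00595 and 0.0243 over 90 relations), and 0.74 without the 2 farthest tumors. Zfp36 followed the leukocyte sum with an r of 0.94 and a rho of 0.87 (permutation p = 0.00023 and 0.00035, adjusted p = 0.00595 and 0.0101), and 0.93 without the 2 farthest tumors. Here the 2 farthest tumors were picked by the marker sum. By r, 8 of 10 members passed with the fibroblast and pericyte sum, 8 with the leukocyte sum and 8 with the sum of 6 endothelial markers. In each case Ier2 and Nr4a1 did not pass. The share of all genes that pass with these sums was not computed, so the counts cannot be called particular to the members. With the sum of 10 mammary epithelial markers all 10 members had a negative r, -0.65 to -0.26, and 5 passed. With the sum of 10 heat shock genes the r of 7 members passed and was negative, reaching -0.86 for Zfp36. Hspa8 alone held 302 to 488 CPM of that sum. Hspa1b went the other way in Sham, at 190 CPM in replicate 1 against 57.9 and 32.2 CPM in the other Sham tumors. In the other groups, the tumor highest for the members was not the highest for Hspa1b. For 6 adipocyte markers 4 members passed and for 12 genes of the integrated stress response 2 passed, while 0 passed for skeletal muscle markers or the mitochondrial share of counts. These relations were added after the data were seen, and the part of cell composition in the group differences was not tested.

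**Figure D5:**
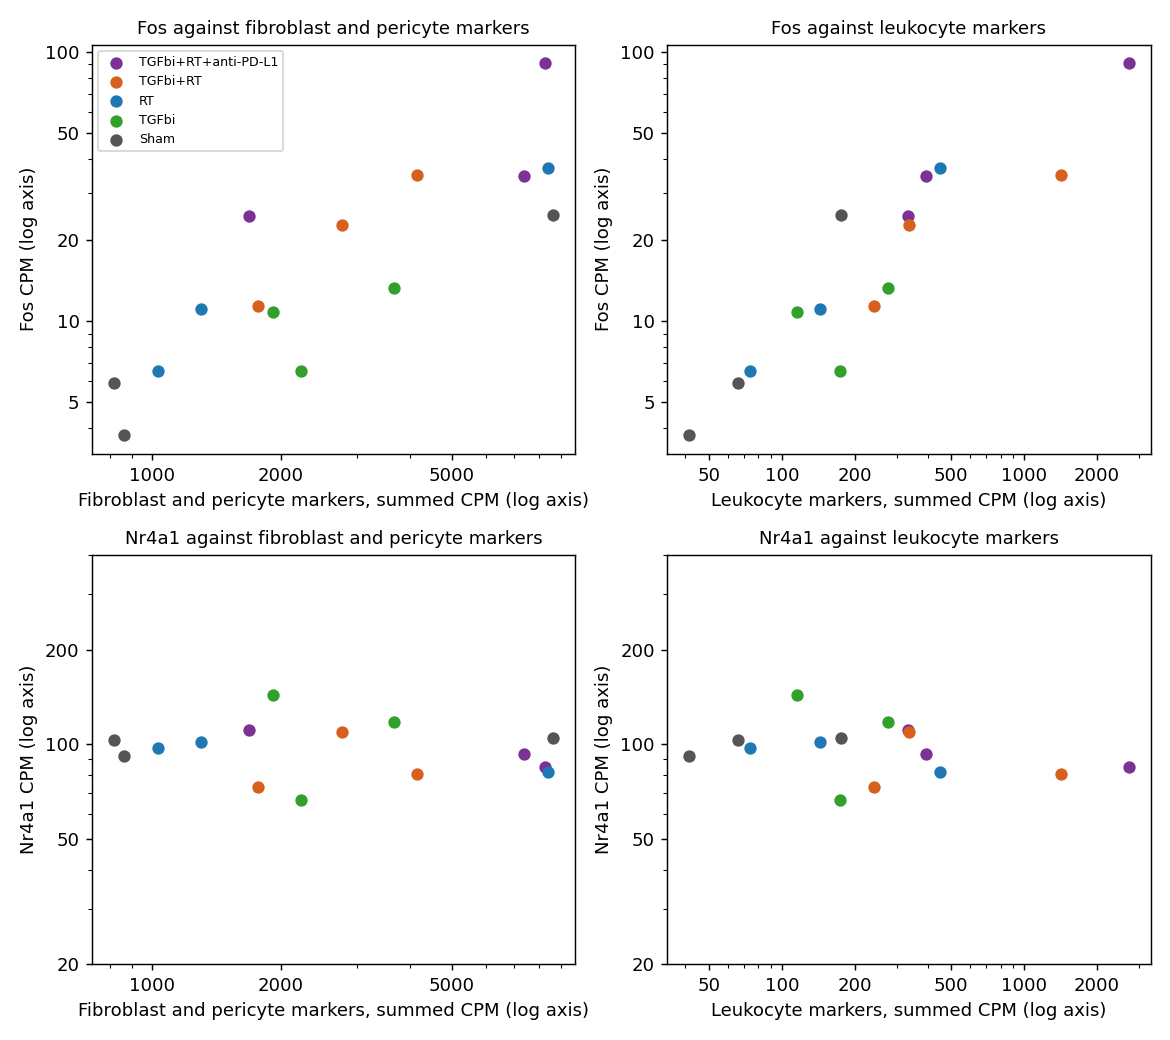
Level in CPM of Fos (upper row) and Nr4a1 (lower row) in 15 tumors against the summed CPM of 8 fibroblast and pericyte markers (left) and 10 leukocyte markers (right), all axes log, colored by group. Fos follows both sums, with an r of 0.91 and 0.89 after group means are removed, and Nr4a1 does not, with an r of -0.15 and -0.25.

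Of the 13173 genes that averaged 1 or more on the log2 CPM scale, the 10 whose pattern over the 15 tumors was most like the mean of the members were Lbh, Il3ra, Timp2, Tgfbr2, Tmem86a, Serping1, Axl, Rgs10, Mmp2 and Lrp1. The likeness is a Pearson r over 15 tumors, given as a description, since all genes share the libraries. It was 0.98 for Lbh, 0.97 for Il3ra and 0.96 for the other 8, while the median over all genes compared was -0.11 and 260 genes were above 0.9. Mmp2, a matrix metalloproteinase, ranged from 11.6 to 471 CPM over the tumors, and Serping1, an inhibitor of complement, from 5.89 to 410 CPM. Tgfbr2, the type II TGF beta receptor, ranged from 35.5 to 355 CPM.

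Other primary response genes, a list of 38 that the filter kept in full, had smaller medians than the members in some comparisons and larger ones in others. On the log2 scale, 26 of 38 were above 0 in the triple group against Sham (49.5% of all genes) with a median of 0.22, and 33 of 38 in TGFbi+RT against TGFbi (53.7% of all genes) with a median of 0.52, against a median of 0.98 and 0.63 over the members. In TGFbi+RT against RT their median was 0.46, against 0.38 over the members, and in the interaction it was 0.78, against 0.52. In RT against Sham 10 of 38 were above 0 (52.1% of all genes) with a median of -0.18, and in TGFbi against Sham 8 of 38 (48.6% of all genes) with a median of -0.28. None of the 38 passed an edgeR adjusted p of 0.05 in any of these comparisons, and at an unadjusted p under 0.05 there were 5 higher and 1 lower in the triple group, 2 higher in TGFbi+RT against TGFbi, and 4 lower each in RT and TGFbi against Sham. Of all genes, 14.9%, 6.06%, 4.2% and 8.48% had an unadjusted p under 0.05 in these 4 comparisons. Nr4a3, a relative of Nr4a1, stood at 1.60, 7.63 and 2.03 CPM in the triple group, 1.56, 1.65 and 4.605 in TGFbi+RT, 0.811, 0.543 and 0.422 in RT, 1.23, 0.877 and 1.05 in TGFbi and 1.07, 0.409 and 0.389 in Sham. Its log2 fold change was 2.56 ± 0.67 in the triple group (SE, edgeR unadjusted p = 0.00227, adjusted p = 0.194) and 2.02 ± 0.67 in TGFbi+RT (unadjusted p = 0.00987, adjusted p = 0.216), each against Sham, and the groups did not overlap in either. In the triple group 9.41% of all genes were higher without overlap, and for TGFbi+RT that share was not computed. Nr4a3 too was named for a small F test p.

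Rgs2, a regulator of G protein signaling, averaged 17.8 ± 11.8 CPM in the triple group and 5.41 ± 2.06 CPM in Sham (SD, n = 3 each). Maff, a small Maf transcription factor, ran the other way, with 13.6 ± 0.74 CPM in the triple group, 15.6 ± 1.90 in TGFbi+RT, 11.9 ± 0.66 in RT, 12.7 ± 2.68 in TGFbi and 19.6 ± 1.08 in Sham. Its tumors in all 4 treated groups lay below all 3 Sham tumors. Maff was among the genes named for a small F test p, and the share of all genes with this separation was not computed. Its edgeR adjusted p was 0.222 in the triple group, 0.37 in TGFbi+RT, 0.999 in RT and 0.329 in TGFbi against Sham.

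Upstream of the members, none of 19 kinases and factors such as Srf, Elk1 and Creb1 passed an edgeR adjusted p of 0.05 in the 4 comparisons with Sham. Their medians lay between -0.15 and -0.02, and at an unadjusted p under 0.05 there were 0 higher in each and 3, 2, 1 and 1 lower in the triple, TGFbi+RT, RT and TGFbi groups, where 14.9%, 15%, 4.2% and 8.48% of all genes had an unadjusted p that low in either direction. Rps6ka1, a ribosomal S6 kinase, averaged 116 ± 18.4 CPM in the triple group, 114 ± 5.55 in TGFbi+RT, 106 ± 12.5 in RT, 123 ± 13.9 in TGFbi and 152 ± 30.4 in Sham. Downstream of Zfp36, 8 of the 11 tested tristetraprolin targets were above 0 in the triple group against Sham (49.5% of all genes), with a median of 0.80. In TGFbi+RT against Sham 8 of 11 were above 0 (49% of all genes), with a median of 0.59. Of these targets 0 passed the adjusted threshold, and 4 and 3 were higher at an unadjusted p under 0.05, against 14.9% and 15% of all genes in either direction. In RT against Sham 4 of 11 were above 0 (52.1% of all genes) with a median of -0.11. In TGFbi against Sham 6 of 11 were above 0 (48.6% of all genes) with a median of 0.06. Their summed levels, over the 12 genes listed, did not follow these medians, with 190, 187 and 661 CPM in the triple group, 413, 622 and 476 in TGFbi+RT, 233, 182 and 255 in RT, 254, 460 and 362 in TGFbi and 783, 470 and 640 in Sham. Tnf, the best known of them, stood at 2.87, 14.2 and 2.36 CPM in the triple group, 2.60, 4.64 and 14.0 in TGFbi+RT, 3.24, 2.78 and 2.53 in RT, 3.34, 1.75 and 3.31 in TGFbi and 2.68, 1.64 and 2.27 in Sham. The tumors highest for Tnf in the triple and TGFbi+RT groups were those highest for Zfp36 itself. Ptgs2 and Ier3 stand both among the targets and among the other primary response genes.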

How the data were processed

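The deposited table holds counts of reads per gene for 15 tumors and 1 internal reference library, raw and not normalized by the authors, for 27179 Entrez genes. The build was GRCm38 per the submitters' processing notes, and column names mention Subread. Counting and strand settings and the annotation release are not given in the sources used here. Per the labels, RNA was depleted of ribosomal RNA before library preparation. The reference library entered no comparison.

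Symbols came from a RefSeq gene table (25275 identifiers matched). Genes were filtered with filterByExpr of edgeR 4.0.16 in R 4.3.3, which left 16017, scaled by TMM and fitted with 1 mean per group over all 15 tumors (10 residual degrees of freedom). Quasi-likelihood tests gave 10 contrasts and an F test, with Benjamini-Hochberg adjustment over all 16017 genes and a threshold of 0.05. The standard error is the log2 fold change divided by the root of F. Log2 CPM had a prior count of 2. Correlations were tested with 100000 permutations within groups. All 10 members were named. A member's fold change was given with its test where the unadjusted p was under 0.05 or the groups did not overlap. Of other lists up to 4 genes with the smallest F test p could be named, and the 10 genes most alike in pattern. The members and lists were chosen with earlier results of these data known. Tumors of a group are taken as separate mice, and within-group pairs had a Spearman correlation of 0.923 to 0.988. Precision is limited by 3 tumors a group more than by counting. Alternatives were RLE factors, DESeq2 1.42.0, no filter, only the groups compared, a replicate block, the library code, and leaving out tumors. The fit was tested on simulated data.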

Additional observations from a re-analysis of the deposited data

Results flagged for a closer look

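Single tumors stood far above the rest for 5 members when levels in CPM were compared over the larger sets of tumors that the pooled contrasts use. Of 40 such sets tested 9 stood out, by the gap to the next tumor as a share of the range. The cutoffs, 0.493 for 9 tumors and 0.625 for 6, presume normal values from 1 population. CPM pooled over treatments need not follow that, so the number that chance alone would flag is not known. These sets share tumors and the genes vary together, so they are not independent, and 6 of the 9 are the same tumor. Triple replicate 2 held 90.8 CPM of Fos, against 37.2 for the next of the 9 irradiated tumors and 34.9 for the next of the 9 inhibitor tumors. It held 60.9 CPM of Fosb, against 12.5 and 5.60 for the next in those sets, and 61.6 CPM of Dusp1, against 26.5 in both. RT replicate 1 held 12.5 CPM of Fosb, against 4.00 for the next of the 6 tumors without inhibitor. Sham replicate 1 held 67.2 CPM of Jun and 23.5 CPM of Atf3, against 25.7 and 7.84 for the next of the 6 unirradiated tumors.

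The internal reference library, which entered no comparison and has no group label that describes its source, exceeded every Sham tumor for 8 of the 10 members. Scaled together with the tumors it held 62.2 CPM of Fos, 11.9 of Fosb, 204 of Junb, 180 of Egr1, 39.1 of Ier2, 96.1 of Dusp1, 182 of Nr4a1 and 54.2 of Zfp36. For Junb, Egr1, Dusp1 and Nr4a1 it exceeded all 15 tumors. It is 1 library with no replicate, so no test was made. The shares of all genes in which it exceeded every Sham tumor or all 15 tumors were not computed. These counts thus cannot be called particular to the members.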

How the results depend on the processing

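No member passed the adjusted threshold under any alternative, all 15 tumors left out in turn included. Of 228 repeats of the 10 member fold changes given with a test, 0 changed direction, and the 225 with an adjusted p stayed above the threshold. DESeq2 gave Fosb no p, adjusted or unadjusted, in any comparison. Over all genes the counts past the threshold depended on the tool. Where edgeR called 1 gene (TGFbi vs Sham) or 0, DESeq2 called 629 in triple vs Sham, 499 in TGFbi+RT vs Sham, 1 in RT vs Sham, 115 in TGFbi vs Sham, 69 in TGFbi+RT vs RT, and 1 each in TGFbi+RT vs TGFbi and triple vs TGFbi+RT. It called 361 for irradiation, 763 for the inhibitor, 3 for the interaction and 705 for any difference, and the cause was not tested. The 1 gene of TGFbi vs Sham became 0 with the replicate block, without the resubmitted libraries and with only the 2 groups in the fit. Without the 2 libraries that stand apart, edgeR called 1 gene for irradiation, 2 for the inhibitor and 1 for any difference. With 1 tumor left out, counts ranged from 0 to 4 (triple vs Sham), 0 to 1 (RT vs Sham), 0 to 5 (TGFbi vs Sham), 0 to 1 (irradiation), 0 to 7 (inhibitor) and 0 to 1 (any difference), and were 0 in the other 5. Same-numbered tumors did not pair: their deviations correlated at -0.58 to 0.67 over 30 pairs, 13 above 0.1, and with the replicate block 0 members passed. Of the 45 member pairs, 23 passed with all tumors and 3 without the 2 farthest. The lowest count of a member was 9, for Fosb in Sham replicate 2, which limits the precision of that value.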
